A study of Mus musculus with 16 samples.

Results

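CD8 T cells from the spleens of wild-type (wt) and Batf3-/- (ko) C57BL/6 mice were compared 48 h after activation. Splenocytes had been enriched for CD8 T cells and cultured with 1 µg/ml of plate-bound anti-CD3e, 1 µg/ml of anti-CD28 and IL-15 at 50 ng/ml, conditions that both genotypes shared. The comparison rests on 8 of the series' 16 RNA libraries, 4 of wt and 4 of ko, and covers every gene of the table. The other 8 libraries are the same genotypes at 72 h. The submitters call the 4 libraries of a condition technical replicates, so p-values here reflect variation among those libraries, which need not be variation among mice. The sources used here do not give the age or sex of the mice, how many were used, the design of the ko allele or the method of enrichment.

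Batf3 is a small basic leucine zipper protein of the AP-1 group. AP-1 proteins bind DNA as pairs, and BATF proteins pair with JUN proteins and can bind beside interferon regulatory factors such as IRF4. Batf3 is best known because cross-presenting dendritic cells need it to develop, and activated T cells switch it on as well. In a naive CD8 T cell, antigen receptor and CD28 signals start growth and division, and IL-15 favours survival and killer functions. Killer cells make granules that hold perforin and granzymes, surface receptors that set their threshold, and cytokines that act on other cells.

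The targeted gene followed the labels. Batf3 (ENSMUSG00000026630; GRCm38 chromosome 1, 191097847 to 191108945, forward strand) had 3065, 2505, 2892 and 3441 counts in the 4 wt libraries and 2, 3, 7 and 6 counts in the 4 ko libraries. Its level was 79.2 ± 5.58 CPM in wt, CPM being counts scaled to a common library total, and 0.128 ± 0.0633 CPM in ko (SD, n = 4 each). The libraries held between 31690770 and 39241169 counts, so that 3 counts, taken as the detection floor, stand for 0.0752 to 0.0917 CPM. No pair of libraries agreed within sampling noise. The main axis of a principal component analysis of the 48 h libraries (54.1% of the variance) separated the genotypes, and the second (19.5%) separated ko replicate 4 from the other libraries, so counts are also given without it.

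Markers of CD8 T cells dominated both genotypes. Cd8a stood at 286 ± 6.07 CPM in wt and 287 ± 16.9 CPM in ko (SD, n = 4 each; adjusted p = 0.98), and Cd4 at 0.104 ± 0.0818 and 0.171 ± 0.0417 CPM. The summed level of 10 CD8 T cell markers was 3311.9 to 3514.7 CPM in wt and 3641.5 to 3893.3 CPM in ko. Sums of other cell types' markers were also higher in ko without overlap of the libraries. The 11 B cell markers summed to 243 to 252 CPM in wt and 287 to 321 CPM in ko, nearly all of it Ighm (236 to 245 against 280 to 314 CPM), while the defining marker Cd79a had at most 5 counts in a wt library and 10 in a ko library. The 15 myeloid markers summed to 135 to 146 CPM in wt and 171 to 194 CPM in ko, most of it Ly6c2 (127 to 135 against 154 to 174 CPM), which activated CD8 T cells also express, with Adgre1, Csf1r, Elane, S100a8 and S100a9 at 0 in every library of 48 h. The 10 NK and gamma delta T cell markers summed to 16.3 to 18.4 CPM in wt and 24.3 to 27.1 CPM in ko. The 4 CD4 T and Treg markers summed to 29.1 to 33.1 and 33.7 to 43.9 CPM. Sums overlapped for the 7 dendritic cell markers (3.49 to 4.33 and 3.62 to 4.83 CPM; Cd209a, Clec9a and Siglech at 0) and the 6 erythroid and platelet markers (1.15 to 1.79 and 1.55 to 2.05 CPM). What part other cells had in the results below was not tested, and in bulk RNA more cells of a type and more RNA per cell cannot be told apart.

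At 48 h the loss of Batf3 went with many small differences. Of 15197 genes tested, 1075 differed between the genotypes at an adjusted p under 0.05 (edgeR's quasi-likelihood test, two-sided, Benjamini-Hochberg adjustment; "called" below), which is 7.07%. Of these, 670 were higher in ko (4.41% of the genes tested) and 405 lower (2.66%). A change of at least 2-fold was rare, with 61 called genes higher (0.401%) and 37 lower (0.243%), and the median log2 fold change over all genes tested was 0.01. All 4 ko libraries lay above all 4 wt libraries for 1089 genes (7.17%) and below them for 1035 (6.81%).

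The number of calls depended on single libraries. Leaving out ko replicate 4 gave 1059 higher and 896 lower genes. The counts fell to 336 and 171 without wt replicate 1, 379 and 189 without wt replicate 2, 399 and 204 without ko replicate 1, and 302 and 218 without ko replicate 2, all of 48 h. Without ko replicate 3 of 72 h, which enters only through the shared estimate of spread and the scaling, 580 genes were higher and 625 lower. The share of calls that were higher in ko was 62.3%, and it was 48.3% when libraries were scaled by their total alone and 48.7% with DESeq2. Log2 fold changes also ran with transcript length (Spearman's rho of -0.398 across 9284 genes, which are not independent replicates), so short genes tended to be higher in ko, and list counts with that trend removed are given below where they bear on a result.

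Because AP-1 proteins read a short DNA word, the promoters of called genes were searched for a loose form of it. The word TGANTCA, which reads the same on both strands, occurred in the 250 bases before the start of 541 of the 10149 tested genes with a RefSeq window (5.33%; GRCm38.p6). It occurred in 33 of 411 genes higher in ko (8.03%) and 17 of 311 genes lower in ko (5.47%). A match describes the letters and not a bound site. The N stands for any letter, and matches were not split by it, so not every match need be an AP-1 word. The 4 windows below belong to genes whose values are given later, Prdm1 and Havcr2 higher in ko and Lif and Ccr4 lower, printed 5′ to 3′ along each gene with the word in capitals.
Prdm1: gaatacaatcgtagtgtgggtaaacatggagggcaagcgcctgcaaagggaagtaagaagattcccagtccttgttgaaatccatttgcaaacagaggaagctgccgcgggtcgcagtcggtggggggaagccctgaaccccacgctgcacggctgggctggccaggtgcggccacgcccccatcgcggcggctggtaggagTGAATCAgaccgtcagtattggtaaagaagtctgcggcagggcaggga
Havcr2: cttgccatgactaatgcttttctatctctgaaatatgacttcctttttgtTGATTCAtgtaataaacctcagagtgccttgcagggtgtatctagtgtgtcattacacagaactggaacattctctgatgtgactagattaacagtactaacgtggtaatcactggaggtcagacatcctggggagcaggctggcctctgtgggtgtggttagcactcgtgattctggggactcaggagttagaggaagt
Lif: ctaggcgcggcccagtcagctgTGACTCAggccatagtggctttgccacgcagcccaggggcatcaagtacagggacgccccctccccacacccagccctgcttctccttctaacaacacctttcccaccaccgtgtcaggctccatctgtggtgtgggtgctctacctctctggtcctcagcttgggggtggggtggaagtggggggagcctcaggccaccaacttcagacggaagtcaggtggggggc
Ccr4: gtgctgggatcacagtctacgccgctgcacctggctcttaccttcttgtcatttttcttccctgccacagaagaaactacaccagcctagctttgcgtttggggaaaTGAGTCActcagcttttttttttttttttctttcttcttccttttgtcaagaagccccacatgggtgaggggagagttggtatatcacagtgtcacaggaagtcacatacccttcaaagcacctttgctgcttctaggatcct

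The windows are chr10:44458749-44458998 (reverse strand) for Prdm1, chr11:46454681-46454930 (forward strand) for Havcr2, chr11:4257318-4257567 (forward strand) for Lif and chr9:114496545-114496794 (reverse strand) for Ccr4. The word begins 48, 200, 228 and 143 bases before the start in that order. Its middle letter is A, T, C and G in the same order. In Ccr4 the word directly follows the letters gaaa, a composite with an IRF site that BATF and IRF4 are known to bind together. That longer word, GAAA directly followed by TGANTCA on either strand, contains the shorter one and occurred in 10 of the 10149 windows (0.0985%), of which Ccr4 was the single one among called genes.

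Several genes of the killing machinery were higher in ko. Of 23 cytotoxic granule genes, 11 were called higher and none lower, against 4.41% and 2.66% of all genes tested. Their median log2 fold change was 0.28. With the length trend removed, 9 were higher and none lower, and the median was 0.21. Gzma, granzyme A, a granule protease, had 20.8, 22.5, 23.4 and 24.4 CPM in the wt libraries and 68.9, 75.1, 57.9 and 54.7 CPM in the ko libraries. Every ko library was above every wt library, and the log2 fold change was 1.49 (SE 0.10, adjusted p = 1.26e-10). Gzmc had 28.5, 23.6, 26.5 and 25.4 CPM in wt and 45.1, 43.1, 41.2 and 46 CPM in ko, a log2 fold change of 0.75 (SE 0.08, adjusted p = 3.44e-07). From here on, a value in brackets followed by its SE is the log2 fold change of ko against wt. Gzmd (1.11, SE 0.17) and Gzme (1.17, SE 0.14) rose as well, from under 5 CPM in every wt library. Their sequences are close copies, as are those of Gzmc, so reads may be shared among these 3. Prf1, perforin, which opens the target's membrane, had 38.1, 37.9, 42.3 and 42.2 CPM in wt and 74, 62.8, 69.5 and 66.1 CPM in ko. Gzmb, the most studied granzyme, was abundant in both genotypes and moved less, from 6123 to 6228 CPM in wt to 7775 to 8263 CPM in ko (log2 fold change of 0.36, SE 0.06). Tnfsf10, Ctsw, Rab27a, Nkg7 and Ctsd completed the 11. For this list, and for the lectin-like receptors and the stress, hypoxia and ribosomal protein genes described below, no member was lower at an unadjusted p under 0.05 with edgeR, or after adjustment with DESeq2 or limma-voom.

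Serpins are protease inhibitors, some of which protect a killer cell from its own proteases, and they were called in both directions. Of 13 serpin genes, 4 were higher (Serpinb1a, Serpine2, Serpina3g, Serpinb6b) and Serpinb2 was lower. The call of Serpinb6b was lost under several alternatives, among them median-ratio scaling. Serpinb1a had 1.43, 1.25, 1.73 and 1.33 CPM in wt and 3.54, 3.05, 3.13 and 2.96 CPM in ko (log2 fold change of 1.14, SE 0.16). Serpine2 rose by 0.46 (SE 0.07) and Serpina3g by 0.43 (SE 0.09) on the log2 scale. Serpinb2 summed to 114 counts over the wt libraries and 1 count over the ko libraries, and DESeq2 called no serpin lower.

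**Figure D1:**
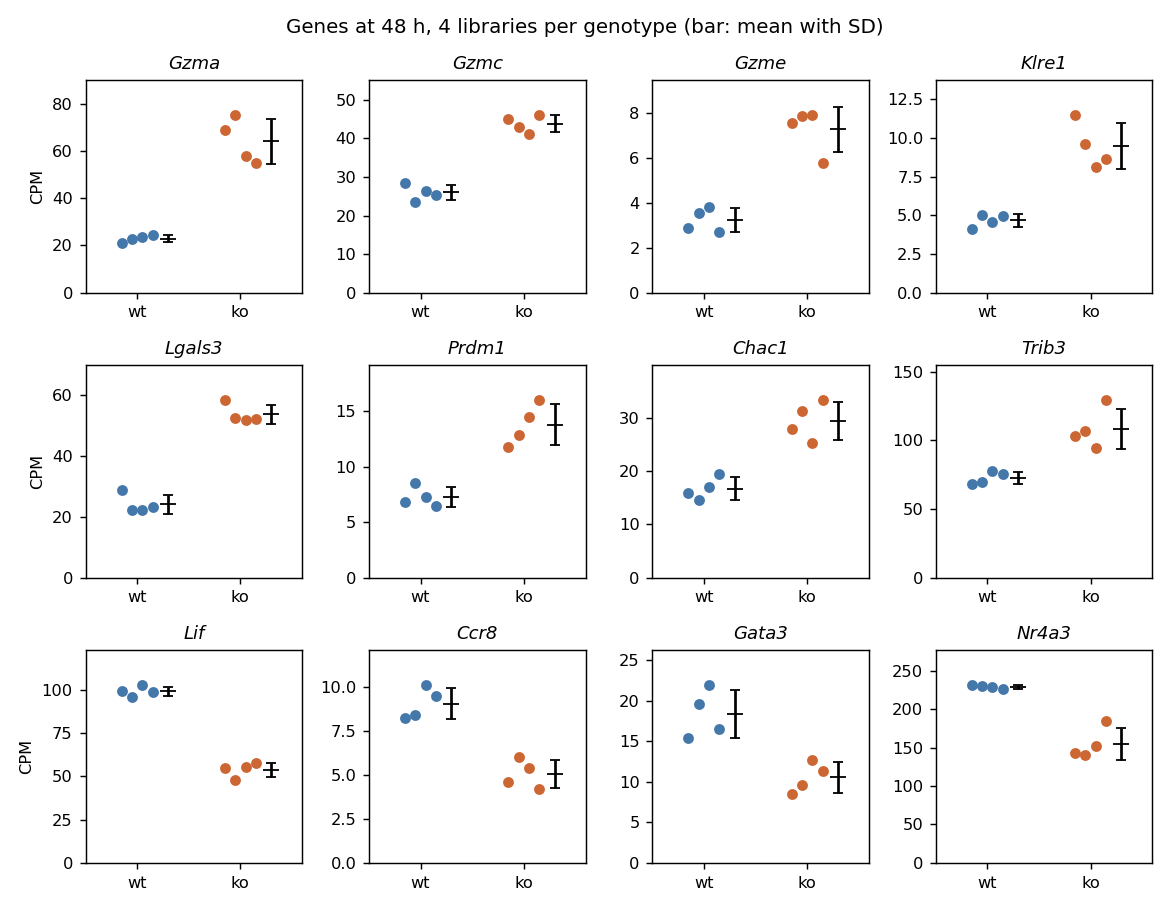
Level in CPM (y axis, from 0) of 12 genes in each of the 4 wt and 4 ko libraries of 48 h (points), with the mean and SD beside them. The genotypes do not overlap for any of the 12, and Gzma, for example, lies between 20.8 and 24.4 CPM in wt and between 54.7 and 75.1 CPM in ko.

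Several receptors of natural killer cells were higher in ko too. Killer cell lectin-like receptors bind MHC class I and related molecules and either raise or lower the threshold for killing. Of the 19 tested, 10 were called higher and none lower, all 19 had a positive log2 fold change, and the median was 0.86. Klre1 had 4.11, 5.03, 4.55 and 4.99 CPM in wt and 11.5, 9.64, 8.15 and 8.65 CPM in ko (1.02, SE 0.13). Klrb1c, the NK1.1 antigen in this strain, had 0.954, 0.745, 0.699 and 0.777 CPM in wt and 2.03, 1.61, 1.68 and 2.05 CPM in ko. Klra7, an inhibitory Ly49 receptor, ranged from 9.78 to 10.6 CPM in wt and 14.9 to 20.1 CPM in ko. Klra genes are near copies of each other, so the values of single members are uncertain. Klrb1c, Klre1 and Klri2 also make up the 3 called genes of the NK and gamma delta T cell markers, whose summed level was 16.3 to 18.4 CPM in wt and 24.3 to 27.1 CPM in ko. The part of such cells in this difference and in that of the granule genes was not tested.

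Several receptors that restrain T cells rose as well. Of 20 inhibitory receptor and Tox genes, 6 were called higher and 1, Cd200, lower. None was lower without wt replicate 1 or 4 or ko replicate 2 or 3 of 48 h, or without wt replicate 2 of 72 h. Havcr2, which encodes TIM-3, had 3.15, 4.05, 4.04 and 4.58 CPM in wt and 7.33, 7.26, 6.6 and 5.59 CPM in ko (0.76, SE 0.11). Lag3 had 92, 85.2, 97.7 and 101 CPM in wt and 112, 123, 121 and 162 CPM in ko (0.46, SE 0.09), with ko replicate 4 the highest. Pdcd1, which encodes PD-1, ranged from 40.5 to 45.1 CPM in wt and from 52.3 to 61.5 CPM in ko (0.39, SE 0.06). Vsir, which encodes VISTA, ranged from 37 to 40.4 CPM in wt and from 50.4 to 52.7 CPM in ko (0.41, SE 0.06). Lair1, a collagen receptor, rose by 0.66 (SE 0.16), a call that was lost without wt replicate 1 or ko replicate 2. Cd160 was the remaining member called higher, and its call was lost without each of several single libraries.

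Costimulatory genes split. Of 27, 3 were called higher and 4 lower, with 5 higher without ko replicate 4 and 2 lower without wt replicate 1, 2 or 4 or ko replicate 3. Tnfsf9, the ligand 4-1BBL, had 2.6, 2.17, 1.73 and 1.7 CPM in wt and 5.09, 4.01, 4.4 and 5.01 CPM in ko (1.17, SE 0.18). Tnfrsf8, which encodes CD30, rose by 0.38 (SE 0.09; the call was lost without wt replicate 2), and Cd27 was the other one higher. Slamf7, a receptor of the SLAM family, had 42.6, 42.7, 44.2 and 42.3 CPM in wt and 29.4, 32.4, 30.7 and 25 CPM in ko (log2 fold change of -0.55, SE 0.07). Slamf1 fell by 0.44 on the log2 scale (SE 0.11), and Cd226 and Icos were lower as well.

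Cytokine genes moved singly rather than as a group. Of 21 effector cytokine and chemokine genes, 3 were called higher (Il21, Ccl5, Ltb) and 2 lower (Lif, Lta). Lif, an IL-6 family cytokine, had 99.4, 95.8, 103 and 99 CPM in wt and 54.6, 48.2, 55.7 and 57.5 CPM in ko (-0.88, SE 0.17, adjusted p = 0.00421). Lta, lymphotoxin alpha, ranged from 169 to 232 CPM in wt and from 105 to 178 CPM in ko, so that the genotypes overlapped, and its call (-0.45, SE 0.12, adjusted p = 0.0297) was lost without wt replicate 1 or wt replicate 4 and in a fit of the 48 h libraries alone. Ltb, its membrane-bound partner, moved the other way, from 132 to 154 CPM in wt to 183 to 200 CPM in ko. Ifng, interferon gamma, had 322, 319, 298 and 324 CPM in wt and 276, 191, 247 and 220 CPM in ko. All 4 ko libraries were below all 4 wt libraries, but the difference did not pass the test (-0.44, SE 0.21, adjusted p = 0.251), although it passed with no filter on low counts and in a fit of the 48 h libraries alone. Il21 was close to the detection floor in wt, at 0.292, 0.0894, 0.0517 and 0.0751 CPM, and stood at 0.696, 0.264, 0.517 and 0.611 CPM in ko, a call that was lost without several single libraries.

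Genes tied to type 2 and regulatory T cells included both signs. Of 9 tested, Il10 was higher and Ccr8, Gata3 and Ccr4 were lower. Il10, an inhibitory cytokine, had 1.27, 0.923, 0.931 and 1 CPM in wt and 4.88, 4.98, 4.27 and 5.5 CPM in ko (2.24, SE 0.22). Gata3, the transcription factor of type 2 cells, had 15.4, 19.6, 21.9 and 16.5 CPM in wt and 8.48, 9.67, 12.8 and 11.4 CPM in ko (-0.79, SE 0.13). Ccr8, a chemokine receptor of type 2 and regulatory cells, had 8.24, 8.37, 10.1 and 9.47 CPM in wt and 4.6, 6, 5.38 and 4.19 CPM in ko (-0.84, SE 0.13). Ccr4, whose promoter window is printed above, had 50, 48.4, 45.7 and 45.5 CPM in wt and 37.4, 29.3, 34.5 and 42.1 CPM in ko (-0.40, SE 0.09).

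Other homing receptors were called in both directions. Of 25 chemokine receptor and homing genes, 4 were called higher, among them Ccr2, Gpr183 and S1pr4, and 1 lower. Ccr2, a receptor for inflammatory chemokines that is also on the myeloid marker list, had 6.92, 9.32, 8.56 and 7.42 CPM in wt and 15, 15.7, 11.7 and 10.6 CPM in ko. S1pr4, a sphingosine 1-phosphate receptor, ranged from 24.8 to 27 CPM in wt and from 29.8 to 35.3 CPM in ko. Without ko replicate 4, 3 members were lower.

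Calls among cytokine receptors were near the shares over all genes tested, of which 4.41% were called higher and 2.66% lower. Of 29 cytokine receptor genes, 1 was called higher and none lower (3 lower at an unadjusted p under 0.05 with edgeR, 1 with DESeq2 and none with limma-voom after adjustment). The called one was Ifngr1, a chain of the interferon gamma receptor, with 131, 160, 151 and 134 CPM in wt and 169, 191, 188 and 176 CPM in ko (0.33, SE 0.07). Il2ra, the alpha chain of the IL-2 receptor, stood at 1194 to 1224 CPM in wt and 1042 to 1150 CPM in ko and did not pass the test (-0.12, SE 0.06, adjusted p = 0.247). Of 19 SOCS, PIM and STAT genes, Bcl3 and Socs3 were higher and Stat4 lower. Bcl3, an atypical I kappa B protein, had 29.2, 24.4, 27.6 and 29.1 CPM in wt and 42.8, 41.7, 41.3 and 49.5 CPM in ko (0.67, SE 0.09). Socs3, a feedback inhibitor of cytokine signalling, ranged from 28.6 to 37.8 CPM in wt and from 38.4 to 55.5 CPM in ko, and its call was lost under several alternatives, among them without ko replicate 4 of 48 h together with wt replicate 4 of 72 h.

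Genes of antigen receptor signalling were called in both directions. Of 32 T cell receptor signalling genes, 4 were called higher (Ubash3b, Txk, Cd3g, Cd3d) and 3 lower (Lcp2, Rasgrp1, Ptprc), and 6 higher and 6 lower without ko replicate 4. Without ko replicate 2, 2 were higher and 1 lower. None was lower without wt replicate 1 or ko replicate 1, and 1 was lower without wt replicate 2 or ko replicate 3. Ubash3b, the phosphatase Sts-1, which dampens receptor signalling, had 15.9, 13.8, 13.6 and 13.8 CPM in wt and 28.1, 27.9, 28.3 and 28 CPM in ko (0.98, SE 0.07, adjusted p = 1.25e-09). Txk, a kinase of the Tec family, had 16.4, 16.2, 15.3 and 15.7 CPM in wt and 20.9, 22.1, 24.4 and 25.5 CPM in ko (0.55, SE 0.09). Of 20 NR4A, EGR, NFAT and NF-kB genes, which the receptor induces or activates, none was called higher (2 at an unadjusted p under 0.05 with edgeR, none with DESeq2 or limma-voom after adjustment) and 2 were lower, or 4 without ko replicate 4 and 1 without wt replicate 1 or 3 or ko replicate 1 or 2. Nr4a3, an orphan nuclear receptor that marks recent receptor signals, had 231, 229, 229 and 226 CPM in wt and 143, 140, 152 and 185 CPM in ko (-0.56, SE 0.07), with ko replicate 4 the nearest to wt. Nfatc2 ranged from 34.1 to 35.8 CPM in wt and from 25 to 31.7 CPM in ko, a call (-0.32, SE 0.09) that was lost without single libraries. None of 17 DUSP, Sprouty and related inhibitors of ERK signalling was called in either direction with edgeR, DESeq2 or limma-voom, and 3 were higher and none lower at an unadjusted p under 0.05 with edgeR.

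Transcription factors of effector and memory cells came next. Of 29 effector and memory fate factors, 5 were called higher and none lower (4 lower at an unadjusted p under 0.05 with edgeR, 2 with DESeq2 and none with limma-voom after adjustment). The 5 became 3 with limma-voom, 2 without wt replicate 1 and 3 without ko replicate 2. Prdm1, which encodes Blimp-1, a driver of terminal effector cells, had 6.84, 8.58, 7.24 and 6.44 CPM in wt and 11.8, 12.9, 14.5 and 16 CPM in ko (0.92, SE 0.11, adjusted p = 7.31e-06). Id2, which blocks E proteins and favours effector cells, had 36.3, 38, 38.4 and 34 CPM in wt and 50, 52.5, 49.4 and 40.3 CPM in ko (0.39, SE 0.08). Zfp683, which encodes Hobit, and Rora and Runx2 rose as well, each with a call that was lost without at least 1 single library. Tcf7, the factor of memory precursors, ranged from 166 to 177 CPM in wt and from 126 to 160 CPM in ko and did not pass the test (-0.28, SE 0.09, adjusted p = 0.0717), although the libraries did not overlap and it passed as lower under 7 alternatives, among them DESeq2, a fit of the 48 h libraries alone and leaving out ko replicate 4. Tbx21 (0.15, SE 0.07, adjusted p = 0.235) and Eomes (0.02, SE 0.07, adjusted p = 0.932), the T-box factors of killer cells, did not pass it either, under any alternative.

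Of 21 AP-1, BATF and IRF genes, 3 were called higher (Jdp2, Batf, Jund) and Batf3 itself lower. Without wt replicate 1 or 4 or ko replicate 2, 1 was higher, and 6 were without wt replicate 4 of 72 h. Jdp2, Batf and Jund lost their calls with the length trend removed, which left 1 other member higher. Batf, the closest relative of Batf3, had 58.1, 53.7, 59.8 and 55.2 CPM in wt and 71.4, 65.7, 65.6 and 69.3 CPM in ko (0.26, SE 0.06, adjusted p = 0.00852). The libraries did not overlap, but the call was lost once the trend with transcript length was removed. Jdp2, an AP-1 repressor, ranged from 7.71 to 10.3 CPM in wt and from 9.93 to 13.4 CPM in ko (0.44, SE 0.12), and its call was lost under the same alternative and without each of 3 single libraries. Irf4, the partner of BATF proteins, had 294, 252, 249 and 264 CPM in wt and 212, 196, 228 and 266 CPM in ko and did not pass the test (-0.23, SE 0.08, adjusted p = 0.0677). It passed as lower under 6 alternatives, among them DESeq2 and leaving out ko replicate 4, whose value was within the range of wt.

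Several stress genes of the ATF4 and CHOP pathway were higher in ko. ATF4 and CHOP (the product of Ddit3) are transcription factors that cells switch on when amino acids are short or protein folding fails, and their targets reset metabolism and can promote death. Of 21 listed genes, 9 were called higher and none lower, and the median log2 fold change was 0.28. Ddit3 had 19.4, 19.5, 23.6 and 24.5 CPM in wt and 38.7, 40.5, 30.7 and 49.4 CPM in ko (0.87, SE 0.12). Chac1, which degrades glutathione, had 15.8, 14.5, 17 and 19.5 CPM in wt and 27.9, 31.2, 25.2 and 33.3 CPM in ko (0.81, SE 0.10). Trib3, a pseudokinase that feeds back on ATF4, had 68, 69.7, 77.4 and 75.5 CPM in wt and 103, 107, 94.4 and 129 CPM in ko (0.57, SE 0.08). Nupr1 ranged from 12.4 to 15.5 CPM in wt and from 17.6 to 24.3 CPM in ko. Ddit4, an inhibitor of mTORC1, ranged from 206 to 236 and from 267 to 303 CPM. Cebpb, Herpud1, Cth and Eif4ebp1 completed the 9. Calls in some lists that border on this branch follow, where 4.41% of all genes tested were called higher and 2.66% lower. Of 20 ER chaperone and unfolded protein response genes none was called in either direction (none higher and 2 lower at an unadjusted p under 0.05 with edgeR, 1 lower with DESeq2 and none with limma-voom after adjustment). Of 20 cytosolic tRNA synthetases Farsb was lower and none higher (none at an unadjusted p under 0.05 with edgeR, nor with DESeq2 or limma-voom). The call of Farsb was lost when any single library of 48 h was left out. Of 14 serine and one-carbon enzymes 3 were lower (1 without wt replicate 1 or 2 or ko replicate 1 or 2) and none higher (4 higher at an unadjusted p under 0.05 with edgeR, none with DESeq2 or limma-voom after adjustment).

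ATF4 pairs with C/EBP proteins such as CHOP on the word TGATGNAA. It occurred, on either strand, in the 250 bases before the start of 246 of the 10149 genes with a window (2.42%), 19 of 411 genes higher in ko (4.62%), 5 of 311 genes lower in ko (1.61%) and 6 of 19 listed stress genes (31.6%). The last share describes a list that was built from known targets of these factors. No window held overlapping copies of this word and of TGANTCA. Windows of 2 called stress genes are shown with the word in capitals, which in both lies on the opposite strand and therefore reads TTGCATCA.
Chac1: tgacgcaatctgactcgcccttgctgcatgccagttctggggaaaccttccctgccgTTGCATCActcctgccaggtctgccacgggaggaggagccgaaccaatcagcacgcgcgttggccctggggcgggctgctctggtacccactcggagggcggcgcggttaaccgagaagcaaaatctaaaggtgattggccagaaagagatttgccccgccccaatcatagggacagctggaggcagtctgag
Nupr1: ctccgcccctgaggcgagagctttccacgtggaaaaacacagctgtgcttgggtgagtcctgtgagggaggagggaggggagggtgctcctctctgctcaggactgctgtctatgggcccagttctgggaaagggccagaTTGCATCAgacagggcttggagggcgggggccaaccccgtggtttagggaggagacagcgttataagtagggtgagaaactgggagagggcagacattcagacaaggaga

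They are chr2:119350992-119351241 (forward strand) for Chac1, where the word begins 193 bases before the start, and chr7:126625471-126625720 (reverse strand) for Nupr1, where it begins 110 bases before the start.

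Of the BCL2 family genes that trigger death, a small group was higher. Of 10 pro-apoptotic BCL2 genes, Bmf, Bcl2l11 and Bbc3 were called higher and none lower (1 at an unadjusted p under 0.05 with edgeR, 1 with DESeq2 and none with limma-voom after adjustment). Bmf, a BH3-only protein, had 3.76, 2.59, 2.82 and 4.11 CPM in wt and 7.93, 5.77, 5.38 and 9.38 CPM in ko (1.09, SE 0.17). Bbc3, which encodes PUMA, ranged from 23.4 to 28.1 CPM in wt and from 30 to 34.2 CPM in ko (0.35, SE 0.08). The call of Bcl2l11, which encodes BIM, was lost when libraries were scaled by their total alone and without each of several single libraries. None of 7 pro-survival BCL2 genes was called (3 higher and 1 lower at an unadjusted p under 0.05 with edgeR, and 1 lower each with DESeq2 and limma-voom after adjustment). Of 20 death receptor and caspase genes, a list not limited to genes that trigger death, Casp4 and Birc2 were higher. The call of Birc2 was lost under several alternatives, among them limma-voom and scaling by library totals. Casp4, an inflammatory caspase, had 7.95, 7.86, 7.14 and 7.06 CPM in wt and 16.3, 15.9, 12.4 and 11.8 CPM in ko (0.91, SE 0.13).

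**Figure D2:**
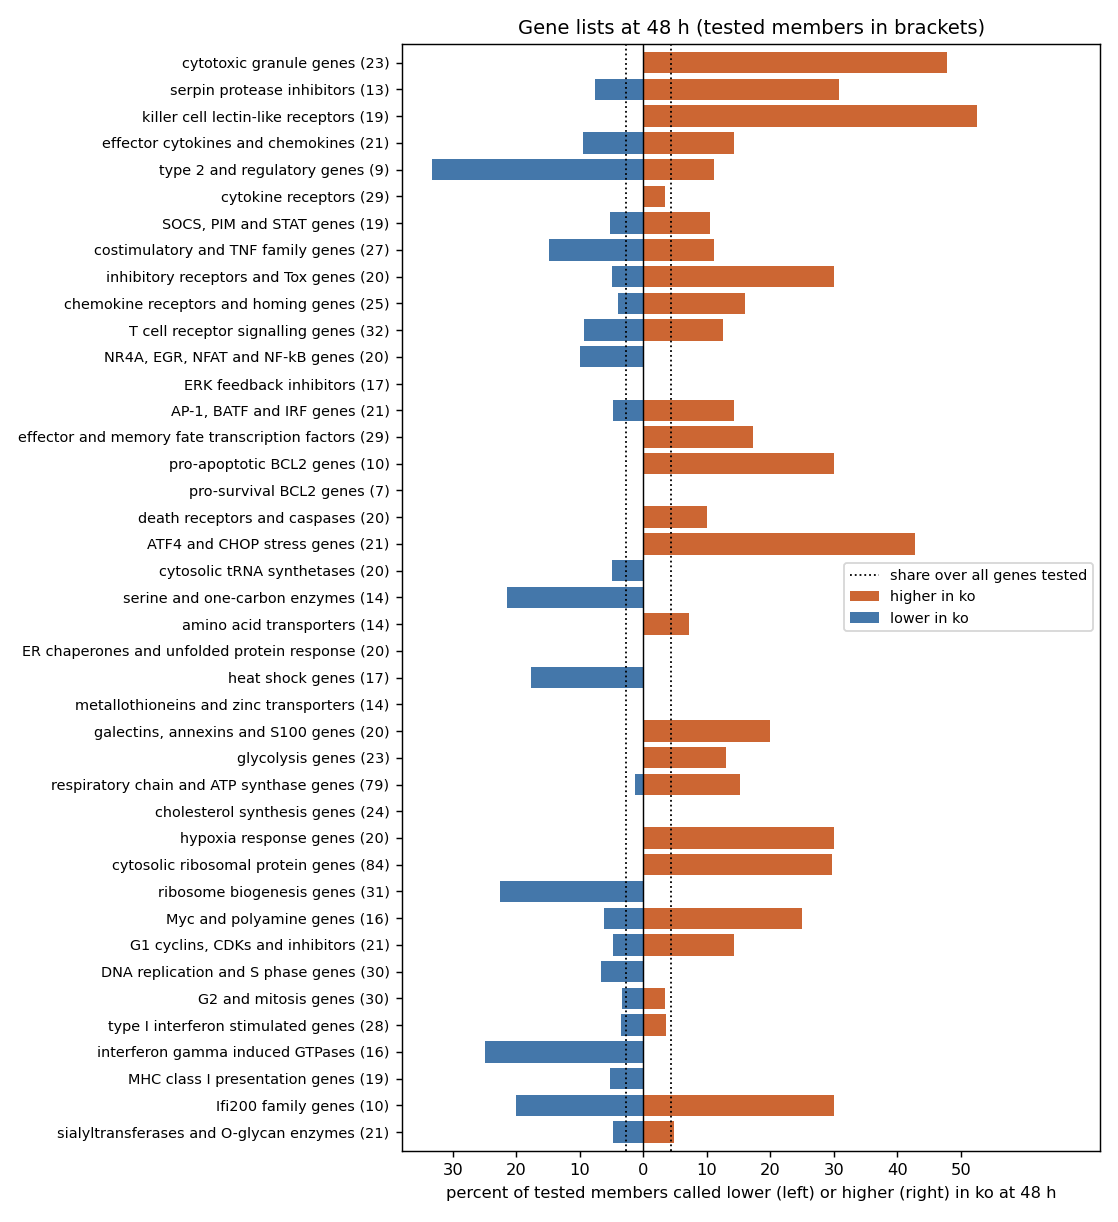
Percent of the tested members of each of 41 gene lists called higher (right, orange) or lower (left, blue) in ko at 48 h, with the number of tested members in brackets and dotted lines at the shares over all genes tested (4.41% and 2.66%). Granule genes (11 of 23), killer cell lectin-like receptors (10 of 19) and stress genes (9 of 21) reach the farthest right.

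Some ribosomal protein genes were called higher and some genes that build ribosomes lower. Of 84 cytosolic ribosomal protein genes, 25 were called higher and none lower, and 80 had a positive log2 fold change with a median of 0.17. Rpl10a had 1263, 1173, 1351 and 1439 CPM in wt and 2348, 2287, 1853 and 1904 CPM in ko (0.68, SE 0.08). Rpl39l, a paralog of Rpl39, had 1.01, 0.625, 1.29 and 0.977 CPM in wt and 3.27, 3.78, 3.39 and 2.54 CPM in ko (1.72, SE 0.27). These transcripts are short. With the length trend removed, 24 were called higher and the median was 0.10. Without ko replicate 4 there were 45, and without wt replicate 1, wt replicate 2, ko replicate 1 and ko replicate 2 there were 16, 15, 15 and 12. Ribosomal protein genes have many near copies, and 29 of 163 pseudogenes named after them were called higher too and none lower (none at an unadjusted p under 0.05 with edgeR, nor with DESeq2 or limma-voom), so reads may be split between gene and copy. The 29 became 5 without ko replicate 2, 9 to 12 without wt replicate 1, 2 or 4 or ko replicate 1, 44 without wt replicate 3 and 52 without ko replicate 4. Of 31 ribosome biogenesis genes, 7 were called lower and none higher (none at an unadjusted p under 0.05 with edgeR, nor with DESeq2 or limma-voom), with a median of -0.18, and 13 were lower without ko replicate 4 and 11 without ko replicate 3 of 72 h. There was 1 without wt replicate 1, wt replicate 2 or ko replicate 2, and there were 3 without ko replicate 1 and 4 without wt replicate 3. With the length trend removed, 5 were lower and none higher. Ncl, nucleolin, had 3109, 3208, 3002 and 2792 CPM in wt and 2513, 2418, 2795 and 2478 CPM in ko, which overlap, and its call (-0.25, SE 0.06) was lost with the length trend removed and without each of 3 single libraries. Wdr43, a processing factor of the small subunit, ranged from 285 to 311 CPM in wt and from 237 to 258 CPM in ko (-0.25, SE 0.06).

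Other metabolic lists were mixed. Of 20 hypoxia response genes, 6 were called higher and none lower, with a median of 0.20. The 6 became 4 with limma-voom, 2 without wt replicate 1 or ko replicate 2 and 3 without wt replicate 2 or ko replicate 1. Ndrg1 had 24.9, 28.3, 27.2 and 24.6 CPM in wt and 35.6, 40.8, 35.8 and 42.9 CPM in ko (0.56, SE 0.08). Ddit4 belongs to this list and to the stress list. Of 79 respiratory chain and ATP synthase genes, 12 were higher and Sdha lower, with a median of 0.12. Removing the length trend left 9 higher and 1 lower with a median of 0.02, and 24 were higher without ko replicate 4. Without wt replicate 1, wt replicate 2, ko replicate 1 or ko replicate 2, only 2 were higher. Of 23 glycolysis genes, Aldoc, Eno3 and Slc2a3 were higher (1 without ko replicate 2) and none lower (2 at an unadjusted p under 0.05 with edgeR, none with DESeq2 or limma-voom after adjustment). None of 24 cholesterol synthesis genes was called with any of the 3 tools, and 1 was higher and 1 lower at an unadjusted p under 0.05 with edgeR. Mthfd1, which carries one-carbon units, had 224, 215, 213 and 209 CPM in wt and 164, 156, 186 and 175 CPM in ko (-0.34, SE 0.07). Of 17 heat shock genes, Hsph1, Hspd1 and Hspa4 were lower (1 without wt replicate 1 or 2 or ko replicate 2) and none higher (none at an unadjusted p under 0.05 with edgeR, nor with DESeq2 or limma-voom). Hspd1, the mitochondrial chaperonin, had 1318, 1383, 1201 and 1229 CPM in wt and 1023, 973, 1181 and 968 CPM in ko.

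Division genes were called in both directions at this time, when 4.41% of all genes tested were called higher and 2.66% lower. Of 30 DNA replication and S phase genes, Mcm4 and Rrm1 were lower and none higher (3 at an unadjusted p under 0.05 with edgeR, none with DESeq2 or limma-voom after adjustment). Of 30 G2 and mitosis genes, Tpx2 was lower and Cenpa higher, and 6 were lower with DESeq2. Of 21 G1 genes, Cdkn2d, Cdkn1b and E2f2 were higher and Ccnd2 lower, with 1 higher without wt replicate 2 or 4 or ko replicate 1 and 5 without wt replicate 4 of 72 h. Cdkn2d, an inhibitor of CDK4 and CDK6, ranged from 45.1 to 51.1 CPM in wt and from 55.8 to 65.3 CPM in ko (0.32, SE 0.06). Of 16 Myc and polyamine genes, Mycn, Mxd1, Sat1 and Mxd4 were higher (2 without wt replicate 2 or 3 or ko replicate 1) and Srm lower. Mycn had 1.67, 1.16, 1.78 and 1.5 CPM in wt and 2.97, 2.58, 2.82 and 3.18 CPM in ko, and Mxd1, a partner of MAX that opposes Myc, ranged from 12.9 to 15.5 and from 16.4 to 20.3 CPM. Myc itself had 332, 315, 327 and 321 CPM in wt and 258, 256, 300 and 320 CPM in ko and did not pass the test (-0.19, SE 0.07, adjusted p = 0.121). It passed without ko replicate 4, whose value was within the range of wt.

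Galectin and annexin genes were among those called higher. Of 20 galectin, annexin and S100 genes, Lgals3, Anxa2, Lgals1 and S100a10 were higher and none lower (2 at an unadjusted p under 0.05 with edgeR, 2 with DESeq2 and none with limma-voom after adjustment). Lgals3, galectin-3, had 28.7, 22.4, 22.2 and 23.2 CPM in wt and 58.3, 52.4, 51.8 and 52.1 CPM in ko (1.15, SE 0.08, adjusted p = 1.21e-10). Anxa2, annexin A2, had 100, 121, 122 and 112 CPM in wt and 178, 184, 187 and 166 CPM in ko (0.65, SE 0.06), and S100A10, its binding partner, is on the same list. Lgals1 ranged from 449 to 496 CPM in wt and from 608 to 774 CPM in ko. With the length trend removed, 3 members of this list were higher and 2 lower. S100a10 lost its call there and without each of several single libraries. Outside the lists, Aqp9, a glycerol channel, had 8.03, 9.77, 9.6 and 9.34 CPM in wt and 18.3, 19.6, 19 and 23.6 CPM in ko (1.13, SE 0.12). Basp1, a membrane-bound adaptor, had 7.63, 7, 8.2 and 8.22 CPM in wt and 17, 13.4, 15.8 and 19.5 CPM in ko (1.07, SE 0.09). Itga7, an integrin chain, Tgfb3, a cytokine of the TGF-beta family, and Cd7 rose by 1.27 (SE 0.21), 1.47 (SE 0.23) and 1.95 (SE 0.37) on the log2 scale, each from a level under 2 CPM in every wt library.

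Several genes outside the lists had large falls. Lrig1, which restrains growth factor receptors, had 30.5, 31.4, 30.1 and 29.3 CPM in wt and 15.3, 13.9, 13.5 and 16.8 CPM in ko (-1.03, SE 0.10). Cemip2, a hyaluronidase of the cell surface, had 27.9, 25.5, 24.8 and 26.5 CPM in wt and 14.8, 14.3, 14.8 and 14.3 CPM in ko (-0.85, SE 0.09). Mid1, an X-linked ubiquitin ligase, had 8.96, 9.5, 9.57 and 8.67 CPM in wt and 1.67, 2.14, 2.28 and 4.25 CPM in ko (-1.83, SE 0.18), with ko replicate 4 the highest of the ko libraries. Wdfy1, an endosomal adaptor, had 22.2, 20.3, 24.1 and 18.7 CPM in wt and 7.02, 9.4, 6.52 and 11.8 CPM in ko (-1.30, SE 0.14). Dennd5a fell by 0.86 (SE 0.11) and Ankrd33b by 0.98 (SE 0.15) on the log2 scale.

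Calls among type I interferon stimulated genes were near the shares over all genes tested, and some interferon gamma induced GTPases were lower. Over all genes tested, 4.41% were called higher and 2.66% lower. Of 28 type I interferon stimulated genes, Dhx58 was higher and Usp18 lower. Of 16 interferon gamma induced GTPases, 4 were lower (Gbp2, Iigp1, Tgtp1, Igtp) and none higher (none at an unadjusted p under 0.05 with edgeR, nor with DESeq2 or limma-voom), with 1 lower without wt replicate 1 or 2 and 2 without ko replicate 1. Gbp2 had 92.5, 106, 86.7 and 80.5 CPM in wt and 64.3, 77.1, 75.6 and 60.2 CPM in ko (-0.40, SE 0.08). Of 21 sialyltransferase and O-glycan genes outside the locus on chromosome 11 described below, St6gal1 was higher, from 8.42 to 12.6 CPM in wt to 14.8 to 18.7 CPM in ko, and St8sia1 lower, from 13.5 to 17 CPM to 9.47 to 11.8 CPM.

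The position of called genes relative to Batf3 was described next. Within 20 Mb of it, and with Batf3 itself left out, 23 of 171 tested genes were called (13.5%) and 7 of them by at least 2-fold (4.09%), against 56 of 723 on the rest of chromosome 1 (7.75%), 995 of 14302 on other chromosomes (6.96%) and 7.07% of all genes. The Ifi200 family, interferon-inducible DNA sensors, lies in this stretch. Of 10 listed members tested, 3 were higher (Ifi202b, Ifi203, Aim2) and 2 lower (Ifi205, Ifi211). Outside the list, Ifi214 (0.77, SE 0.21) and the pseudogene Ifi203-ps (2.27, SE 0.42) of the same stretch were called higher too, and Ifi206 was not called. Ifi202b had no count in any wt library and 61 counts in all in ko, which makes it at least 21.5-fold higher against a floor of 3 counts over the group. Ifi203 had 6.39, 10.6, 7.66 and 5.99 CPM in wt and 13.2, 15.3, 16.4 and 13.3 CPM in ko, while Ifi211 had 4.19, 3.69, 3.6 and 3.88 CPM in wt and 1.21, 1.67, 1.27 and 1.47 CPM in ko. These genes are near copies of each other, so reads may be shared. Fcgr3, an activating Fc receptor that is also a myeloid marker, lies just past the window and had 0.106, 0.328, 0.31 and 0.15 CPM in wt and 3.51, 3.08, 3.83 and 3.48 CPM in ko (3.96, SE 0.24). For genes in this stretch, the loss of Batf3 and sequence carried along with the ko allele cannot be told apart.

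**Figure D3:**
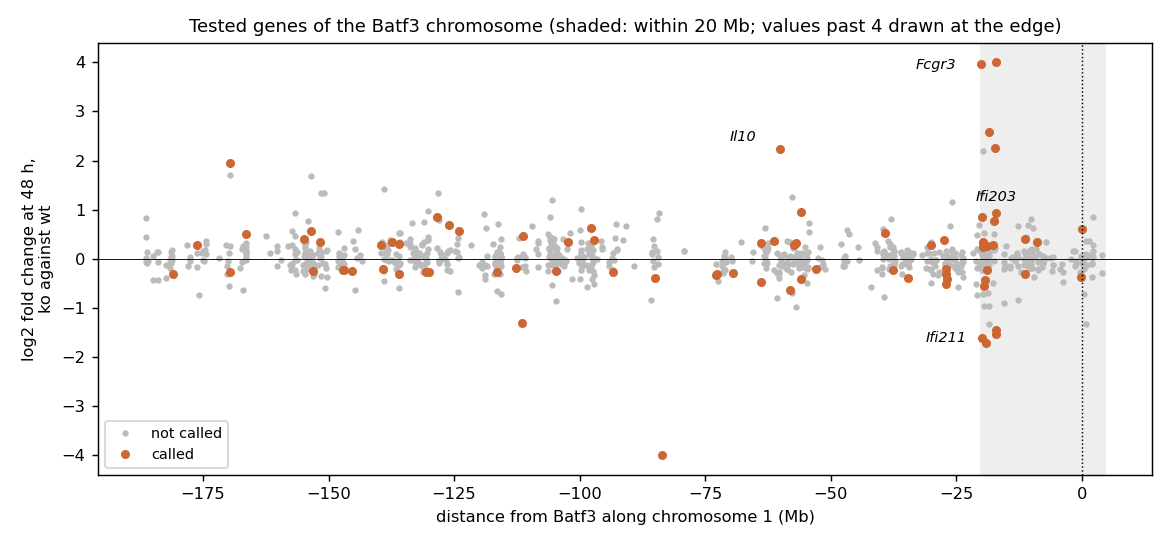
Log2 fold change at 48 h, ko against wt (y axis), of tested genes on chromosome 1 by their distance from Batf3 in Mb (x axis; Batf3 itself left out), with called genes in orange and the stretch within 20 Mb shaded. Most called genes of chromosome 1 lie within 1 of 0 on the log2 scale, and 7 of the 23 called genes in the shaded stretch changed at least 2-fold.

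Some loci were on in one genotype and off in the other. Of 31 genes called with at least a 4-fold change, 12 were higher and 19 lower, and 27 of them were called the same way at 72 h. On chromosome 11, between 116645595 and 116828046 (GRCm38), 5 genes were at or near 0 in ko and another, Mxra7, was lower. BC018473 had 47, 45.5, 45.8 and 47.5 CPM in wt and no count in any ko library, at least 2202-fold lower against a floor of 3 counts over the group. St6galnac1 and Gm11735 had no count in ko either, at least 84.3-fold and 57.8-fold lower. St6galnac2, a sialyltransferase, had 7.92, 8.34, 7.99 and 7.59 CPM in wt and 0.394, 0.293, 0.129 and 0.244 CPM in ko. Cygb, cytoglobin, went from 0.718 ± 0.169 to 0.0291 ± 0.025 CPM and Mxra7 from 3.30 ± 0.315 to 0.753 ± 0.254 CPM (SD, n = 4 each). The flanking genes Rhbdf2 (-0.29, SE 0.10, adjusted p = 0.0747) and Jmjd6 (-0.16, SE 0.09, adjusted p = 0.317) did not pass the test. The next genes outward did, Ube2o beside Rhbdf2 as lower (-0.26, SE 0.08, adjusted p = 0.044) and Mettl23 beside Jmjd6 as higher (0.585, SE 0.10, adjusted p = 0.000969). Sphk1, Srsf2 and Mfsd11, also nearby, were not called. Snhg16, inside the stretch, was still expressed, at 12.5 ± 1.16 CPM in wt and 9.65 ± 0.57 CPM in ko (-0.37, SE 0.08). On the X chromosome Tex11 had no count in ko, at least 65.7-fold lower. H60b, a ligand of the receptor NKG2D, had 3.95, 5.06, 3.73 and 4.33 CPM in wt and 0, 0.176, 0.155 and 0.122 CPM in ko. On chromosome 14 Gm16867 and Gm27177 were lower together with Entpd4 (-0.98, SE 0.09) and Entpd4b (-1.01, SE 0.09), which are near copies of each other. On chromosome 3, 1810013D15Rik and its neighbour Ankrd13c were higher, the latter from 48.1 to 53.7 CPM in wt to 95.4 to 103 CPM in ko. For these loci too, the loss of Batf3 and any other difference in sequence between the wt and ko mice cannot be told apart.

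Most genes called at 48 h were called the same way at 72 h, while most of those called at 72 h were not called at 48 h. A gene without a call at 48 h may still differ there, and a change of the difference with time was called for only 853 genes. At 72 h, 5526 genes were called (36.4%), 2565 higher (16.9%) and 2961 lower (19.5%). Of the 670 genes higher at 48 h, 488 were also called higher at 72 h, which is 72.8% of the 48 h list and 19% of the 72 h list. Of the 405 lower genes, 323 were called lower at 72 h, or 79.8% and 10.9% of the lists. The remaining genes called at 72 h numbered 4707 that were not called at 48 h and 8 that were called the other way, B4galnt1, Eno3, Jdp2 and Pimreg higher at 48 h and Gbp2, Gm26917, Stambpl1 and Syt5 lower. The count called the same way at both times, 811, was 405 without wt replicate 1, 450 without wt replicate 2, 460 without ko replicate 1, 420 without ko replicate 2 and 1438 without ko replicate 4, all of 48 h.

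**Figure D4:**
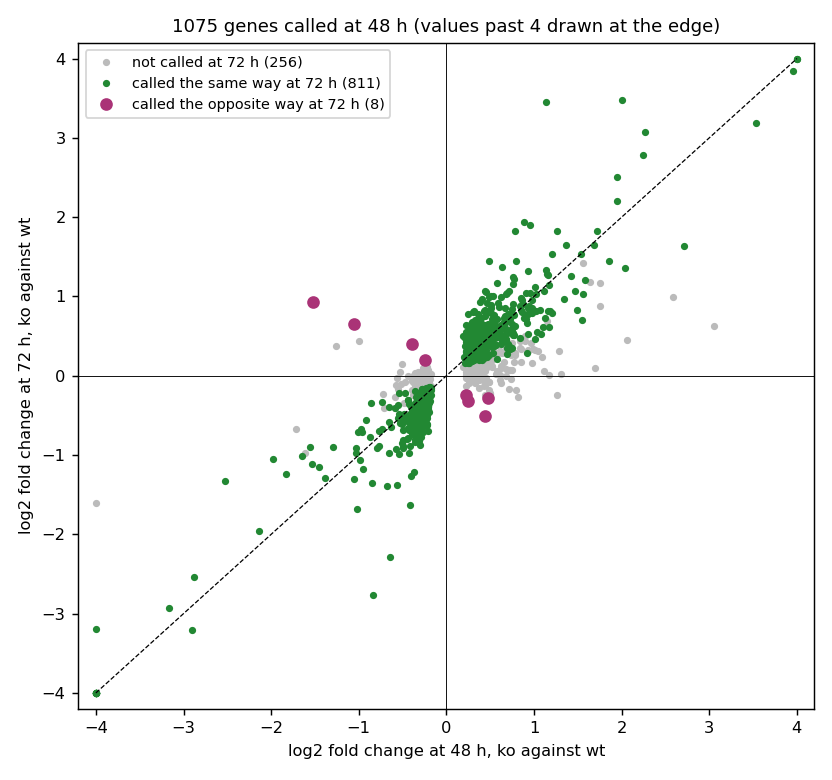
Log2 fold change, ko against wt, at 48 h (x axis) and at 72 h (y axis) of the 1075 genes called at 48 h, with the dashed line at equal change. The 811 genes called the same way at 72 h lie at the lower left and upper right, and the 8 called the opposite way lie at the upper left and lower right.

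Whether a difference changed with time was tested by the interaction of genotype and time, which was called for 853 genes (5.61%). It was called for 518 without wt replicate 1, 488 without wt replicate 4 and 474 without ko replicate 3 of 48 h, and for 446 without wt replicate 3 and 514 without ko replicate 3 of 72 h. Among genes higher at 48 h it was called for 59, with a smaller difference at 72 h for 32 and a larger one for 27. Among genes lower at 48 h it was called for 39, with a smaller difference for 14 and a larger one for 25. Gzmc, Gzmd and Gzme differed at 48 h but had log2 fold changes of 0.07, 0.07 and 0.01 at 72 h (interaction adjusted p = 0.000396, 0.00619 and 0.00078). Gzmc, for one, stood at 84.8 CPM in wt and 89.2 CPM in ko at 72 h (means, n = 4 each). Prdm1 shrank from 0.92 to 0.28 (interaction adjusted p = 0.0145) and Bmf from 1.09 to 0.24 (interaction adjusted p = 0.0289). Differences that grew included Ccr8, from -0.84 to -2.77 (interaction adjusted p = 7.11e-06), Serpinb1a, from 1.14 to 3.45 (interaction adjusted p = 1.91e-06), Nr4a3, from -0.56 to -1.38 (interaction adjusted p = 5.12e-05) and Ccr4, from -0.40 to -1.26 (interaction adjusted p = 0.00039).

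The lists were also read at 72 h, when 16.9% of all genes tested were called higher and 19.5% lower. The interaction was called for 10 of the 21 ATF4 and CHOP genes, and at 72 h 7 of the list were higher and 5 lower. Chac1 went from a log2 fold change of 0.81 to -0.27 (interaction adjusted p = 0.000294), Trib3 from 0.57 to 0.21 (interaction adjusted p = 0.0478), and Nupr1 the other way, from 0.58 to 1.17 (interaction adjusted p = 0.0215). Ribosomal protein genes called higher numbered 25 of 84 at 48 h and 76 at 72 h, with a median of 0.42 at 72 h, but the interaction was called for 5 of them, against 5.61% of all genes. Ribosome biogenesis genes called lower numbered 7 and 23 of 31, S phase genes 2 and 20 of 30, and NR4A, EGR, NFAT and NF-kB genes 2 and 14 of 20. The interaction was called for 8, 11 and 6 members of these 3 lists. The granule list had 14 higher and 1 lower at 72 h, and the lectin-like receptors 12 of 19 higher, with the interaction called for 6 and none of their members. Cholesterol synthesis genes, of which none was called at 48 h, had 11 of 24 lower at 72 h and the interaction called for 7.

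**Figure D5:**
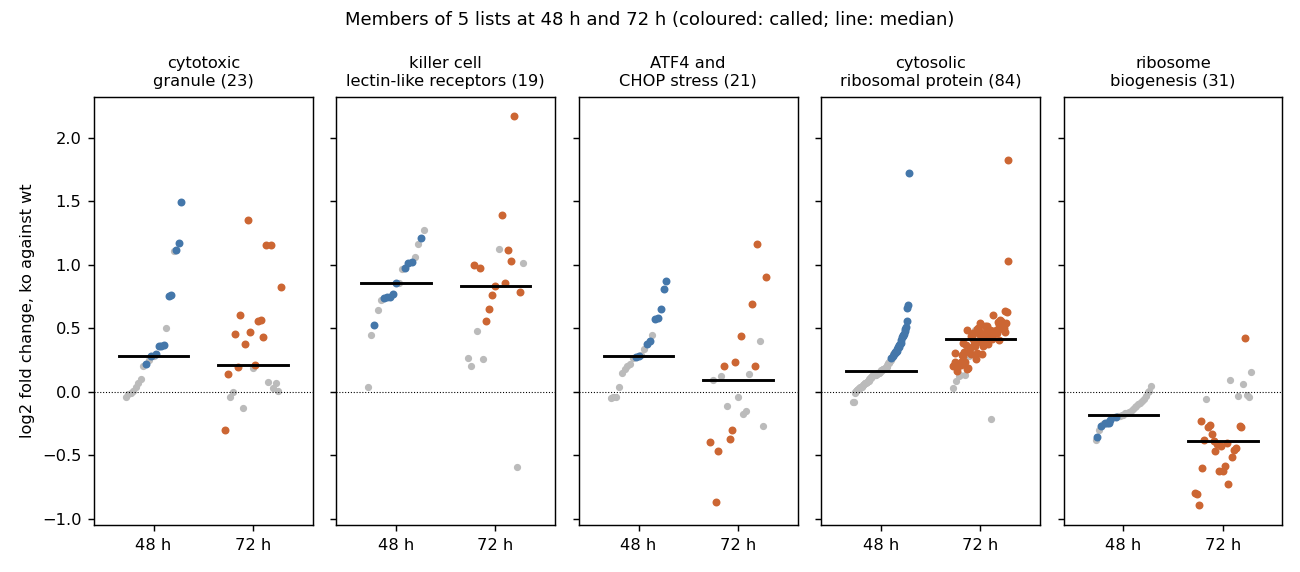
Log2 fold change, ko against wt (y axis), of each tested member of 5 gene lists at 48 h and 72 h, with called members coloured (blue at 48 h, orange at 72 h), others grey and a line at the median. The median of stress genes goes from 0.28 to 0.09, and that of ribosomal protein genes from 0.17 to 0.42.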

How the data were processed

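Poly-A RNA was sequenced in 16 stranded libraries made with 100 ng of total RNA (TruSeq Stranded mRNA, per the labels' protocols). The deposited values are raw counts per gene, which the authors made from reads converted with bcl2fastq 2.2.0, aligned with STAR 2.7 and counted with featureCounts on GRCm38, per the submitters' processing notes. Neither the annotation release nor the strand setting of the counting was named there. Positions and exon lengths came from GENCODE M21, which held 55154 of the 55335 gene IDs, and promoter sequences from RefSeq (GRCm38.p6), matched by symbol.

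Counts were tested as deposited with edgeR 4.0.16 in R 4.3.3 (quasi-likelihood F test, robust, two-sided). The fit held TMM scaling, genes kept by filterByExpr with a minimum count of 10, and 4 groups (genotype by time) of all 16 libraries sharing one estimate of spread. Its median biological coefficient of variation was 9.68%. P-values were adjusted by Benjamini-Hochberg over all 15197 genes tested, with a threshold of 0.05. Fold changes are log2 values with the standard error taken as the absolute fold change over the square root of F. CPM are scaled by TMM. The fit was tested on simulated counts of the 48 h comparison. Of 100 genes changed 1.5-fold and 100 changed 2-fold, it recovered 86% and 100%, and 7 of its 193 calls were false. The simulated counts held no deviating library and no trend with transcript length, so these figures need not hold for the real calls.

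Genes are named by these rules: the 15 largest rises and falls among genes whose libraries did not overlap and whose log2 CPM averaged 2 or more, the 6 largest differences in CPM each way, up to 6 called members of each list, a set of reference genes such as Ifng and Tcf7, the largest interactions, and the largest 6 called genes within 20 Mb of Batf3. The loci that were on in one genotype and off in the other, their flanking genes, genes of the Ifi200 stretch outside the list and members named only to complete a list were chosen after their values were seen. Lists are described by counts and medians with no set test. The comparison, its members and the gene lists were chosen with earlier results of these data known. Alternatives were DESeq2 1.42.0, limma-voom (limma 3.58.1), other scalings, filters and sets of libraries, a 1.5-fold test, removal of the length trend and the replicate number as a block. List counts under 3 of these (library totals, length trend, without ko replicate 4) were added after seeing the data. Same-numbered wt and ko libraries of 48 h deviated together with correlations of 0.058, 0.161, 0.197 and -0.0423, so the numbers were not taken to pair samples. The values of a few single genes are not reported here.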

Additional observations from a re-analysis of the deposited data

Results flagged for a closer look

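In 105 genes named above, the 4 libraries of a genotype at 48 h were screened for 1 library far from the other 3, which chance finds in about 1 of 20 groups. It was found in 12 of 210 groups (5.71%), 2 of them ko replicate 4. In ko replicate 4, Gzme (5.80 CPM) and Klra3 (5.62 CPM) were low. In wt replicate 1, Il21 (0.292 CPM), Ubash3b (15.9 CPM), Tcf7 (177 CPM) and Lgals3 (28.7 CPM) were high. In ko replicate 1, Lgals3 (58.3 CPM) and Cd7 (0.696 CPM) were high. In wt replicate 2, Mxd1 (15.5 CPM) was high, and in wt replicate 4, Ighm (236 CPM) was low. In ko replicate 2, Ifi202b (0.703 CPM) and Tgfb3 (1.99 CPM) were high.

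For 22 of these genes the difference between ko and wt changed from 48 h to 72 h by the interaction test. Values here are the log2 fold change at 72 h minus that at 48 h, so a negative value means that ko moved down relative to wt. Among granule and serpin genes they were -0.67 for Gzma, -0.68 for Gzmc, -1.05 for Gzmd, -1.17 for Gzme and 2.32 for Serpinb1a. Among receptors and ligands they were -1.93 for Ccr8, -0.86 for Ccr4 and 1.97 for H60b, whose level in ko was 0 to 0.176 CPM at 48 h. Among regulators they were 0.96 for Socs3, -0.81 for Nr4a3, -0.95 for Jdp2, -0.64 for Prdm1 and -0.47 for Eomes. Among stress and death genes they were -1.08 for Chac1, -0.37 for Trib3, 0.58 for Nupr1 and -0.85 for Bmf. The others were 0.80 for Gbp2, -0.55 for Basp1, -0.75 for Pimreg, -0.51 for Cemip2 and -0.57 for Eno3.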

How the results depend on the processing

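The 4 main counts were 670 higher and 405 lower genes at 48 h, 853 genes with an interaction and 811 called the same way at both times. Each stayed within 1.5 times of its value under median-ratio scaling, limma-voom, 2 other filters and removal of the length trend, the first 2 counts also in a fit of the 48 h libraries alone. Library totals gave 1414 interactions, and DESeq2 gave 830 lower genes. The test against a 1.5-fold change, which asks for more, gave 21 higher and 28 lower. Without ko replicate 4 of 48 h and wt replicate 4 of 72 h together, 1379 were higher, 1173 lower, 1144 had an interaction and 1947 were called the same way at both times. Leaving out 1 library at a time gave 302 to 1059 higher, 171 to 896 lower, 446 to 1056 interactions and 405 to 1438 called the same way. The cause of these shifts was not tested. With the replicate number as a block, 572 were higher and 346 lower, with 709 interactions and 689 called the same way. Of 201 named genes, 183 were called. Of these, 99 kept their call in every setting that gave them an adjusted p, besides the 1.5-fold test, and 84 lost it in at least 1. A setting that gave a gene no adjusted p was not counted as a loss, as for Serpinb2, since DESeq2 called no serpin lower. Of the 18 others, 7 gained a call, and none of the named genes reversed.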

Other observations

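Outside the protein-coding genes, calls at 48 h ran mostly one way. Of 1698 pseudogenes tested, 108 were higher in ko and 15 lower, against 517 and 380 of 12148 protein-coding genes. Of 899 long noncoding RNAs, 29 were higher and 9 lower. Of 164 T cell receptor segments, 13 were higher and none lower (3 lower at an unadjusted p under 0.05 with edgeR, none with DESeq2 or limma-voom after adjustment), and 4 to 17 were higher when 1 library was left out, with 4 to 6 without wt replicate 1, wt replicate 2, ko replicate 1 or ko replicate 2.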
